A study of Mus musculus with 8 samples.

Results

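Smooth muscle and enteric nervous system genes were described in the colon of adult mice lacking STAT5b, a transcription factor that carries signals of growth hormone and other cytokines to the nucleus. The 39 genes were listed by cell type: 19 belong to the contractile apparatus of smooth muscle and 20 mark enteric neurons or glia. Of the 39, 33 were measured, among 14351 genes in all, 16 of them smooth muscle and 17 nervous system genes, read by 36 probe sets. Myl9, Flna, Synpo2, Gfap, Sox10 and Chat were not analysed here.

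Total RNA from colon was hybridised to 8 Affymetrix expression arrays, in which groups of short DNA probes, called probe sets, each read 1 transcript. There were 3 arrays labelled STAT5b-/-, of which replicate 1 came from a male and the others from females, and 3 arrays labelled WT, wild type and female. The REF sample, labelled wild type and female with no stated role, was deposited as 2 columns whose values matched to within a relative difference of 2.47e-07, less than sampling noise, and was counted as 1 sample. Strain and age in weeks, which part of Stat5b was disrupted, and which stretch of colon was taken are not given in the sources used here. Nor is it given whether replicates of the same sex were separate animals. The spread behind each p-value is that of these samples and may be technical among replicates of the same sex. STAT5b-/- replicate 1, a male, cannot be a repeat of the females, so the STAT5b-/- spread also mixes the sexes, unlike that of WT. The part of sex was not tested. Every value is given relative to the WT mean of its probe set, which is 1, and neither the brightness of a gene nor its level against another gene can be read from it. For the same reason the markers show how the tissue differed between arrays and cannot show whether a cell type was present. The Stat5b probe set itself read 1.16, 1.17 and 1.26 in the STAT5b-/- arrays, 1.18 in REF and 1.08, 0.930 and 0.993 in the WT arrays (log2 fold change 0.26 ± 0.12, SE, limma adjusted p = 0.175), so every direction below rests on the labels. The lowest array median over all probe sets was 0.948, in REF, and the highest was 1.04, in WT replicate 2.

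The wall of the colon carries circular and longitudinal layers of smooth muscle, whose actin and myosin filaments slide when calcium, through calmodulin, activates myosin light chain kinase. Between and beneath these layers lie the myenteric and submucosal plexuses of the enteric nervous system, neurons and glia of neural crest origin that drive contraction, relaxation and secretion. Excitatory motor neurons release acetylcholine and tachykinins, and inhibitory motor neurons release nitric oxide and vasoactive intestinal peptide (VIP).

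The promoter windows of 3 members are shown because these genes stand for the 3 outcomes described below. Acta2, smooth muscle alpha-actin, is a contractile gene with nearly the same level in both groups. Pcp4 had the largest rise and Vip the largest fall among the members. The windows run from 250 bases before to 50 bases after the annotated start of the gene, 5′ to 3′ on the strand of the gene, in RefSeq's sequence of build GRCm38.p6. The Acta2 window is chr19:34255324-34255623 on the minus strand, the Pcp4 window is chr16:96467356-96467655 on the plus strand and the Vip window is chr10:5638968-5639267 on the plus strand.
Acta2: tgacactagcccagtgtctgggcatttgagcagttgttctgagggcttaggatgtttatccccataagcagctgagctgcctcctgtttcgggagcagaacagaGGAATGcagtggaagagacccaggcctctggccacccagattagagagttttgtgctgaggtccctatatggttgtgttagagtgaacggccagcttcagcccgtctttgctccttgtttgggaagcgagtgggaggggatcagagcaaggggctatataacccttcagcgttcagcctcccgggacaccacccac
Pcp4: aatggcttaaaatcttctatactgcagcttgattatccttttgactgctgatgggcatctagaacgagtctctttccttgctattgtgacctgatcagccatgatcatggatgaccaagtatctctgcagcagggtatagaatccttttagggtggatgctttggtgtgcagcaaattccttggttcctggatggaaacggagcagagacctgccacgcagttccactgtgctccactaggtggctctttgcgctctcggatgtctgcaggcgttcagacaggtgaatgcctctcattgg
Vip: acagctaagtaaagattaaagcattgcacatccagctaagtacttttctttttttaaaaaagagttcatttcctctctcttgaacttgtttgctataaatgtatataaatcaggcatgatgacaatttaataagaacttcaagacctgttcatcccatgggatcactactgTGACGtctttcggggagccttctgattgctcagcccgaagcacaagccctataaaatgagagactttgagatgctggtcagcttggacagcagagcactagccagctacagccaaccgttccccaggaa
In the Acta2 window the capitals mark an MCAT motif, searched as CATTCC or its complement GGAATG, which starts 146 bases before the gene's start; 14.7% of 32851 promoter windows hold it. In the Vip window they mark the core of a cAMP response element, searched as TGACG or its complement CGTCA, which starts 79 bases before the start; 20.8% of windows hold it. The motif of STAT factors, TTCNNNGAA, which reads the same on both strands, was in 8.3% of all windows and in the windows of 0 of the 23 measured members that have 1 or more in the table. That count says only that these letters are not in these short windows.

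The first question was whether the muscle coat and its nerves read differently in STAT5b-/- colon. Most members did not pass the test. Of the 33 measured members, 2 rose (Pcp4 and Nefl) and 2 fell (Snap25 and Vip) in STAT5b-/- arrays by limma over all genes, at an adjusted p under 0.05. That is 12.1% of the members, beside 21.7% of all genes, with 13.3% of all genes higher and 8.42% lower. By class, 6.25% of the smooth muscle genes and 17.6% of the nervous system genes were called. The STAT5b-/- and WT arrays did not overlap in 6 members, 2 higher and 4 lower, beside 41.5% of all genes without overlap. The median log2 fold change was 0.007 over the members and 0.007 over all genes. In bulk tissue, fewer cells of a type and less RNA per cell cannot be told apart.

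**Figure D1:**
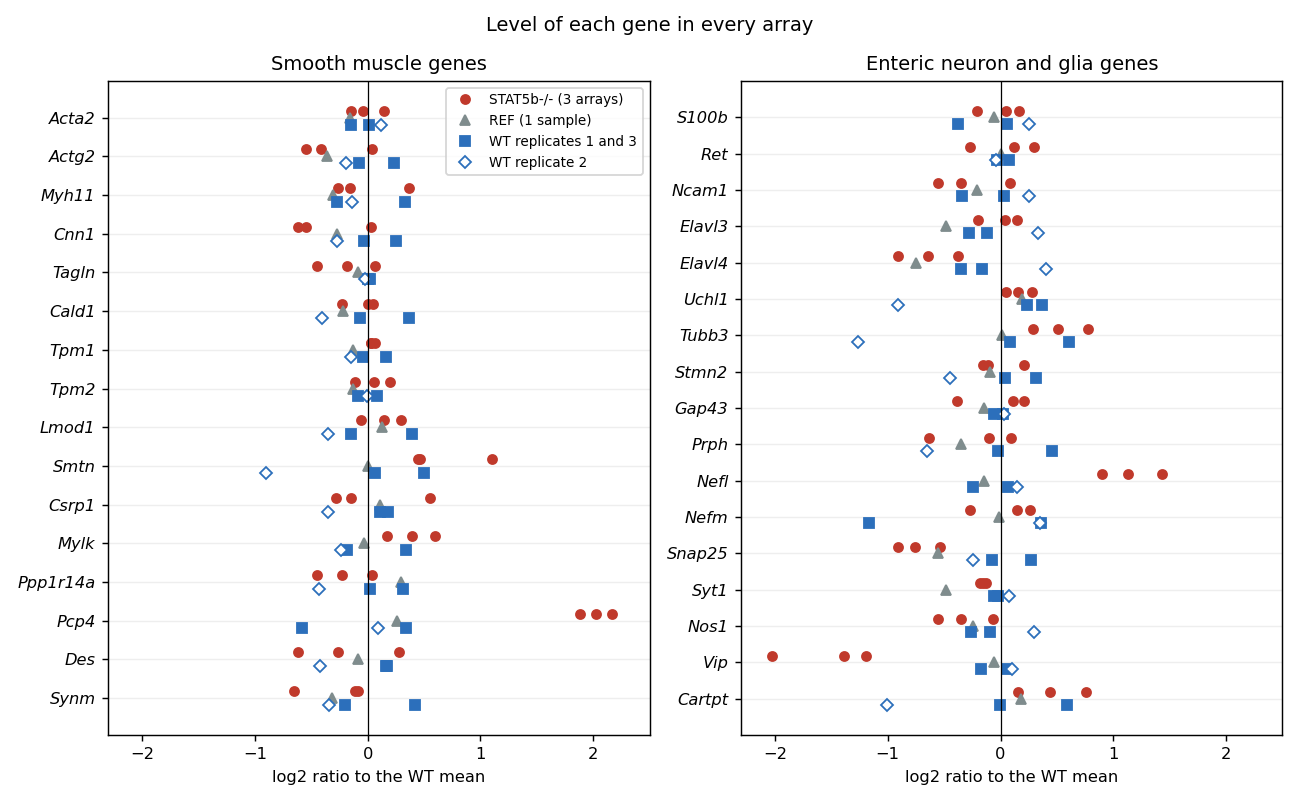
Log2 ratio to the WT mean (horizontal) of the 16 smooth muscle genes (left) and 17 enteric neuron and glia genes (right), with 1 point per sample: STAT5b-/- arrays as circles, REF as a triangle, WT replicates 1 and 3 as squares and WT replicate 2 as an open diamond. The circles of Pcp4 and Nefl lie right of all WT points and those of Vip left of them, while most other genes overlap, and the open diamond is far left in Smtn, Uchl1, Tubb3 and Cartpt.

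The contractile filaments themselves did not differ detectably. Acta2 read 0.901, 1.10 and 0.975 in the STAT5b-/- arrays, 0.897 in REF and 0.905, 1.08 and 1.01 in the WT arrays. Its groups overlapped fully, and the log2 fold change was -0.01, with a 95% interval of -0.34 to 0.32 (limma adjusted p = 0.968). Myh11, the smooth muscle myosin heavy chain, read 0.898, 1.29 and 0.835 in the STAT5b-/- arrays, 0.808 in REF and 0.830, 0.911 and 1.26 in the WT arrays. Here 1 array of each genotype, STAT5b-/- replicate 2 and WT replicate 3, lay well above the rest, and the log2 fold change was 0.01 (interval -0.54 to 0.55). Actg2, the enteric gamma-actin of visceral muscle, read 0.752, 1.03 and 0.684 in the STAT5b-/- arrays, 0.781 in REF and 0.949, 0.874 and 1.18 in the WT arrays. It had the smallest p of these 3 genes, and its log2 fold change of -0.29 ± 0.20 (SE) did not pass (limma adjusted p = 0.358).

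Proteins that bind the actin filament gave 0 calls among 8 genes, where 21.7% of all genes were called. Their log2 fold changes ran from -0.36 for Cnn1 to 0.78 for Smtn. Smoothelin (Smtn), a marker of contractile smooth muscle, had the smallest p of them, with ratios of 1.38, 2.15 and 1.36 in the STAT5b-/- arrays, 1.0 in REF and 1.05, 0.536 and 1.42 in the WT arrays. WT replicate 2 was the lowest of all samples and the groups overlapped through WT replicate 3. The log2 fold change of Smtn was 0.78 ± 0.37 (limma adjusted p = 0.191), and 0.39 without WT replicate 2. Calponin (Cnn1), which restrains the actin-activated ATPase of myosin, averaged 0.785 ± 0.203 in the STAT5b-/- arrays and 1 ± 0.183 in the WT arrays (SD, n = 3 each). Transgelin (Tagln), an actin cross-linker, averaged 0.886 ± 0.155 in the STAT5b-/- arrays and 1 ± 0.018 in the WT arrays. The WT arrays were tight in Tagln, and 2 of the 3 STAT5b-/- arrays lay below them.

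The remaining thin-filament genes lay closer to the WT mean. Caldesmon (Cald1), which blocks myosin binding on actin, had a log2 fold change of -0.03. The tropomyosins Tpm1 and Tpm2, which run along the actin filament, had 0.05 each, with 95% intervals of -0.25 to 0.35 and -0.26 to 0.37. Lmod1, a leiomodin that nucleates actin filaments, had 0.16, and Csrp1, a LIM protein of the actin cytoskeleton, had 0.06. Over all 16 smooth muscle genes, 14 had a 95% interval of the log2 fold change wholly inside 1 unit on either side of 0, that is, inside a 2-fold change. The exceptions were Smtn and Pcp4, and over all genes 68.5% of intervals were that narrow and central.

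Muscle intermediate filaments tie the contractile units together. Desmin (Des) had ratios of 0.833, 1.21 and 0.652 in the STAT5b-/- arrays, 0.945 in REF and 1.13, 0.747 and 1.12 in the WT arrays. Synemin (Synm), which joins desmin to the membrane, was read by 3 probe sets that gave log2 fold changes of -0.24 each. Their ratios were nearly the same in every array, so they are not counted as independent readings. Its averaged ratios were 0.927, 0.945 and 0.635 in the STAT5b-/- arrays, 0.803 in REF and 0.870, 0.788 and 1.34 in the WT arrays. The lowest value of both genes was in STAT5b-/- replicate 3, and neither passed (limma adjusted p = 0.703 for Des and 0.560 for Synm).

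Regulators of contraction held the largest change. Pcp4, a small protein that binds calmodulin and alters how calcium loads onto it, read 3.70, 4.50 and 4.06 in the STAT5b-/- arrays, 1.20 in REF and 0.670, 1.07 and 1.26 in the WT arrays. All 3 STAT5b-/- arrays lay above every wild type sample by a wide margin. Pcp4 rose 4.21-fold, a log2 fold change of 2.08 ± 0.24 (SE, limma adjusted p = 0.00205). With quantile normalization the log2 fold change was 1.25 and did not pass (adjusted p = 0.130). Pcp4 is also made by neurons, and these arrays do not show which cells carried it.

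The kinase and phosphatase arm around it did not pass. Mylk, myosin light chain kinase, which starts contraction, read 1.31, 1.51 and 1.12 in the STAT5b-/- arrays, 0.976 in REF and 0.883, 0.848 and 1.27 in the WT arrays. Only WT replicate 3 reached into the range of the STAT5b-/- arrays, and the log2 fold change was 0.41 ± 0.20 (limma adjusted p = 0.203). Ppp1r14a (CPI-17), which inhibits myosin phosphatase and so prolongs contraction, averaged 0.870 ± 0.148 in the STAT5b-/- arrays and 1 ± 0.251 in the WT arrays. To set Pcp4 beside a contractile gene, the log2 ratio of Myh11 was subtracted from that of Pcp4 in each array. The result was 2.04 ± 0.239 in the STAT5b-/- arrays, 0.564 in REF and -0.0254 ± 0.268 in the WT arrays (SD, n = 3 each, exact permutation p = 0.1, two-sided, the smallest that 3 against 3 allows). This and the 3 further gene pairs below were chosen after the values were seen, and adjustment over the 4 pairs leaves each p at 0.1.

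**Figure D2:**
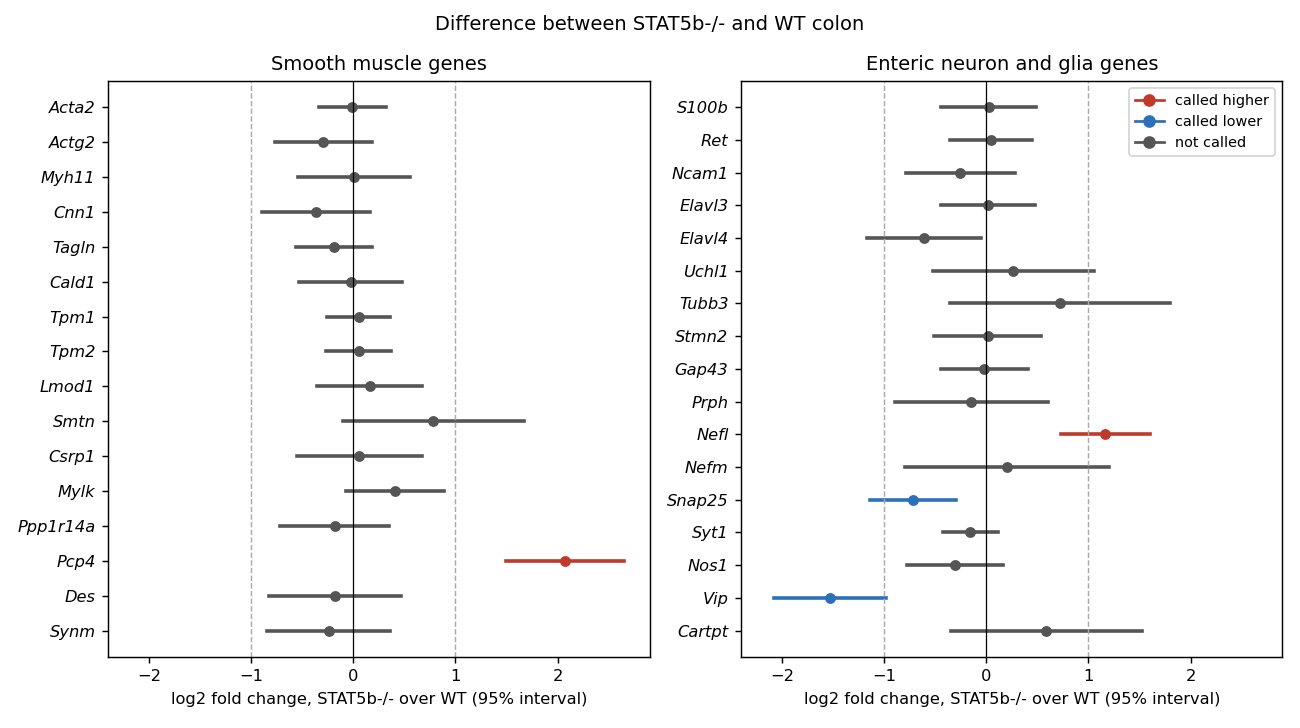
Log2 fold change of STAT5b-/- over WT (points) with its 95% interval (lines) for each member, smooth muscle genes left and enteric neuron and glia genes right; dashed lines mark a 2-fold change and colours mark genes past an adjusted p of 0.05. Only Pcp4, Nefl, Snap25 and Vip are coloured, and 14 of 16 smooth muscle intervals lie between the dashed lines.

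Smooth muscle genes tended to be high or low in the same arrays within a genotype. Of the 16 smooth muscle genes, 14 were highest in STAT5b-/- replicate 2 among the STAT5b-/- arrays, where 30.2% of all genes were. Among the WT arrays, 13 of the 16 were highest in WT replicate 3 and 12 were lowest in WT replicate 2, against 25.9% and 33% of all genes. The median log2 ratio of the 16 genes was -0.13, 0.17 and -0.19 in STAT5b-/- replicates 1 to 3, -0.11 in REF and -0.07, -0.25 and 0.24 in WT replicates 1 to 3. The spread between arrays of 1 genotype was far larger than the median difference between genotypes, which was -0.002. These counts and medians are descriptions and carry no test.

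WT replicate 2 stood apart in several genes of both kinds. The median of its log2 ratios minus the mean of the other WT arrays was -0.35 over the smooth muscle genes, 0.12 over the nervous system genes and 0.08 over all genes. The members farthest below the other WT arrays were Tubb3 at -1.61, Cartpt at -1.30, Uchl1 at -1.21 and Smtn at -1.18. Elavl4, at 0.65, lay above both other WT arrays. In the same array the median of 20 skeletal muscle markers was 0.59 above and that of 13 adipocyte and mesothelium markers 0.37 below (a log2 difference of -0.37) that of WT replicates 1 and 3. The part of tissue composition in these values was not tested.

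**Figure D3:**
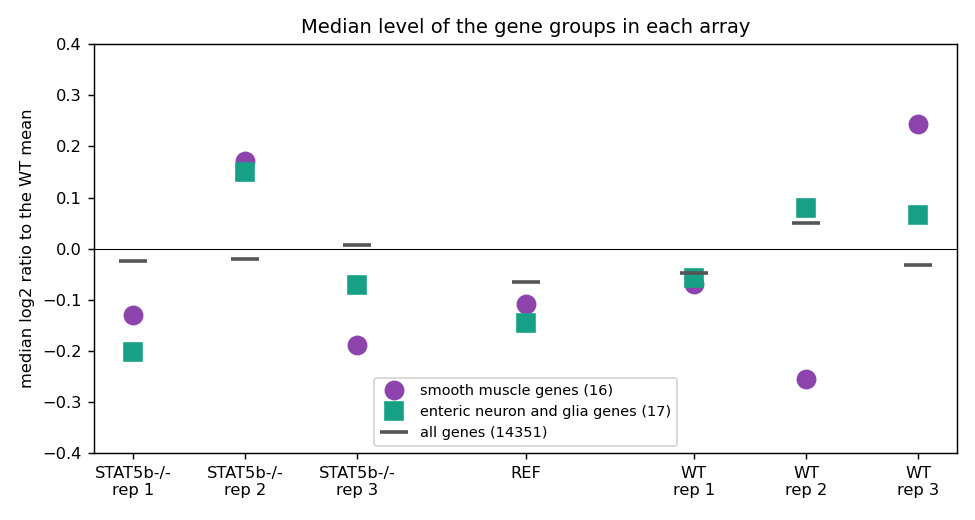
Median log2 ratio to the WT mean (vertical) over the smooth muscle genes, the enteric neuron and glia genes and all genes in each sample, with STAT5b-/- arrays left, REF in the middle and WT arrays right. The smooth muscle median runs from -0.19 to 0.17 in STAT5b-/- arrays and from -0.25 to 0.24 in WT arrays, while the median of all genes stays near 0.

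Among the nervous system genes, the few markers of the cells as such gave no call, where 21.7% of all genes were called. S100b, a calcium-binding protein of enteric glia and the glia marker measured here, read 1.04, 1.12 and 0.863 in the STAT5b-/- arrays, 0.958 in REF and 0.770, 1.19 and 1.04 in the WT arrays. The groups overlapped, and the log2 fold change was 0.02 with an interval of -0.45 to 0.49 (limma adjusted p = 0.953). Ret, the receptor for glial cell line-derived neurotrophic factor that enteric precursors need, averaged 1.05 ± 0.200 in the STAT5b-/- arrays and 1 ± 0.046 in the WT arrays. The adhesion molecule Ncam1 read 0.681, 0.784 and 1.06 in the STAT5b-/- arrays, 0.864 in REF and 0.789, 1.19 and 1.02 in the WT arrays, and its log2 fold change was -0.25 ± 0.22 (limma adjusted p = 0.482).

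Of 9 neuronal RNA-binding, cytoskeletal and growth proteins, 1 rose and 0 fell, or 11.1% called beside 21.7% of all genes. Nefl, the light subunit on which neurofilaments of large axons are built, read 2.69, 2.19 and 1.87 in the STAT5b-/- arrays, 0.902 in REF and 0.844, 1.11 and 1.05 in the WT arrays. All STAT5b-/- arrays lay above all wild type samples. Nefl rose 2.24-fold, or by 1.16 ± 0.18 on the log2 scale (limma adjusted p = 0.00607), and with quantile normalization the log2 fold change was 0.78 and did not pass (adjusted p = 0.0758).

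The partner subunits of the neurofilament did not pass. Nefm, the medium subunit, whose gene is the next protein-coding gene to Nefl on chromosome 14, read 1.20, 1.11 and 0.829 in the STAT5b-/- arrays, 0.991 in REF and 0.447, 1.28 and 1.28 in the WT arrays. WT replicate 1 was the lowest sample and the rest overlapped. The log2 ratio of Nefl minus that of Nefm was 1.11 ± 0.107 in the STAT5b-/- arrays, -0.136 in REF and 0.143 ± 0.673 in the WT arrays (exact permutation p = 0.1, the smallest possible). Nefh, the heavy subunit, and internexin (Ina), 2 genes from the wider list named after their values were seen, had log2 fold changes of -0.51 ± 0.16 and -0.37 ± 0.44 (limma adjusted p = 0.0708 and 0.609). Peripherin (Prph), the intermediate filament of peripheral neurons, averaged 0.881 ± 0.216 in the STAT5b-/- arrays and 1 ± 0.369 in the WT arrays.

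The RNA-binding proteins Elavl3 and Elavl4, known as HuC and HuD and used to count enteric neurons, differed in their values. Elavl4 read 0.532, 0.641 and 0.768 in the STAT5b-/- arrays, 0.595 in REF and 0.894, 1.32 and 0.786 in the WT arrays. The STAT5b-/- arrays lay below all WT arrays, but so did REF, and the log2 fold change of -0.61 ± 0.23 did not pass (limma adjusted p = 0.114). Its 2 probe sets gave log2 fold changes of -0.61 each, with nearly the same ratio in every array, and are not counted as independent readings. Elavl3 averaged 1.0 ± 0.120 in the STAT5b-/- arrays and 1 ± 0.230 in the WT arrays, with a log2 fold change of 0.02.

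Tubb3 and Uchl1 spread widely among the WT arrays. Tubb3, the neuronal beta-tubulin, read 1.22, 1.72 and 1.43 in the STAT5b-/- arrays, 1.01 in REF and 1.06, 0.416 and 1.53 in the WT arrays. Its log2 fold change was 0.72 with an interval of -0.36 to 1.80 (limma adjusted p = 0.321), and 0.18 without WT replicate 2. Uchl1, the ubiquitin hydrolase PGP9.5, read 1.04, 1.22 and 1.11 in the STAT5b-/- arrays, 1.14 in REF and 1.29, 0.534 and 1.18 in the WT arrays. Its log2 fold change was 0.26, and -0.14 without WT replicate 2. The WT arrays were tight in Gap43. Stmn2, which destabilises microtubules in growing axons, and Gap43, a growth cone protein, had log2 fold changes of 0.01 (interval -0.51 to 0.54) and -0.02 (interval -0.44 to 0.41).

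**Figure D4:**
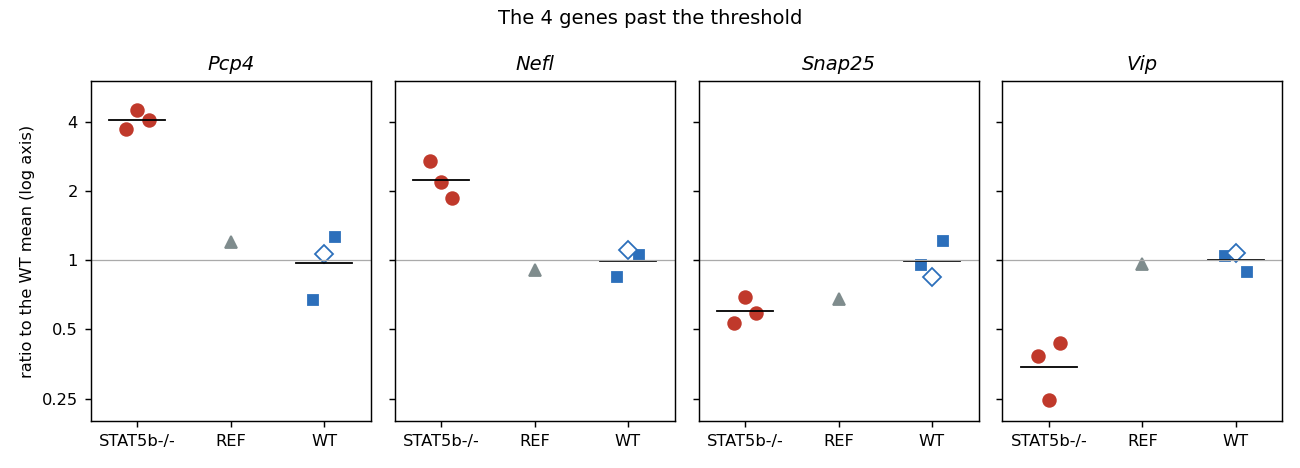
Ratio to the WT mean (vertical, log axis) of the 4 members past the threshold, with 1 point per sample in STAT5b-/- (circles), REF (triangle) and WT (squares, with replicate 2 as an open diamond) and horizontal bars at the geometric means of STAT5b-/- and WT. REF lies with the WT arrays in Pcp4, Nefl and Vip, and at 0.680 inside the range of the STAT5b-/- arrays in Snap25.

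Of the synaptic release proteins, Snap25 fell and Syt1 did not pass. Snap25, a membrane subunit of the SNARE complex that fuses synaptic vesicles, read 0.533, 0.691 and 0.592 in the STAT5b-/- arrays, 0.680 in REF and 0.950, 0.843 and 1.21 in the WT arrays. The STAT5b-/- arrays lay below all WT arrays, and REF, although labelled wild type, lay inside their range. Snap25 fell by 0.72 ± 0.18 on the log2 scale (limma adjusted p = 0.0310). The call ended when WT and REF were pooled as wild type (adjusted p = 0.0738), when WT replicate 2 was replaced by REF, a choice made after seeing the data (0.0686), with quantile normalization (0.355), with replicate number as a block (0.0755), and when an array was left out, except WT replicate 2 (adjusted p = 0.0643 without WT replicate 1, 0.0814 without WT replicate 3, and 0.106, 0.0562 and 0.101 without STAT5b-/- replicates 1, 2 and 3). The log2 fold change itself stayed between -0.83 and -0.57 over all 18 alternatives.

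Syt1, the calcium sensor of vesicle release, was among the tightest members. It read 0.896, 0.917 and 0.881 in the STAT5b-/- arrays, 0.716 in REF and 0.962, 1.06 and 0.982 in the WT arrays. The groups did not overlap, yet the log2 fold change of -0.15 ± 0.11 was small and missed the threshold (limma adjusted p = 0.390), while REF lay lower than any STAT5b-/- array. The log2 ratio of Snap25 minus that of Syt1 was -0.577 ± 0.171 in the STAT5b-/- arrays, -0.0749 in REF and -0.0151 ± 0.311 in the WT arrays (exact permutation p = 0.1, the smallest possible).

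Among transmitter enzymes and neuropeptides, Vip fell. VIP relaxes gut muscle and stimulates epithelial secretion, and its gene read 0.381, 0.245 and 0.437 in the STAT5b-/- arrays, 0.959 in REF and 1.04, 1.08 and 0.887 in the WT arrays. Every STAT5b-/- array lay below every wild type sample. Vip fell by 1.53 ± 0.23 on the log2 scale (limma adjusted p = 0.00502), so that WT was 2.89-fold above STAT5b-/-. It passed in each of the 18 alternatives tried, where the log2 fold change lay between -1.70 and -1.15 and the adjusted p between 0.00151 and 0.0378.

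Nos1, neuronal nitric oxide synthase, which inhibitory motor neurons often contain beside VIP, read 0.680, 0.783 and 0.953 in the STAT5b-/- arrays, 0.842 in REF and 0.833, 1.23 and 0.936 in the WT arrays. The groups overlapped, and the log2 fold change was -0.31 with an interval of -0.78 to 0.17 (limma adjusted p = 0.334). The log2 ratio of Vip minus that of Nos1 was -1.21 ± 0.426 in the STAT5b-/- arrays, 0.188 in REF and 0.0147 ± 0.268 in the WT arrays (exact permutation p = 0.1, the smallest possible). Cartpt, a peptide of enteric neurons, read 1.69, 1.11 and 1.35 in the STAT5b-/- arrays, 1.14 in REF and 0.998, 0.499 and 1.50 in the WT arrays. Its log2 fold change was 0.59 ± 0.39 (limma adjusted p = 0.350), and 0.16 without WT replicate 2.

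None of the 29 members without a call passed in any alternative it was part of, which was 17 for Synm and Elavl4 and 18 for the others. REF was compared with WT as 1 sample against 3. By limma 0 of the 33 members passed, as did 0% of all genes, and 0 members had an unadjusted p under 0.05 against 208 of all genes (1.45%). REF lay outside the range of the WT arrays in 10 members (30.3%), beside 48.4% of all genes. All 10 lay below the 3 WT arrays and 0 above, beside 28.2% and 20.1% of all genes. The lowest REF values among members were 0.595 for Elavl4, 0.680 for Snap25, 0.716 for Syt1 and 0.717 for Elavl3, all neuronal genes.

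Wider lists of the same systems were counted in the same fit. Smooth muscle contraction signalling and ion channels had 2 of 23 higher and 4 lower, a share of 26.1% beside 21.7% of all genes. The calcium channel Cacna1h fell by 0.88 ± 0.15 and Mrvi1, a target of cGMP kinase that restrains calcium release, fell by 0.60 ± 0.14, while the calcium release channel Ryr2 rose by 0.69 ± 0.14 (limma adjusted p = 0.00837, 0.0261 and 0.0151). Smooth muscle transcription factors had 0 of 15 higher and 1 lower, Mef2c, which fell by 1.02 ± 0.25 (adjusted p = 0.0292), a share of 6.67%. Other smooth muscle structural and adhesion genes had 2 of 38 higher and 6 lower, or 21.1%. Fhl1, a LIM-domain protein of muscle, fell by 1.01 ± 0.13, whereas Sspn, of the dystrophin complex, rose by 1.30 ± 0.21 and Zyx, of focal adhesions, by 0.67 ± 0.12 (adjusted p = 0.00261, 0.00656 and 0.00909). Sspn had ratios of 2.645, 2.659 and 2.004 in the STAT5b-/- arrays, 1.799 in REF and 1.129, 0.7526 and 1.119 in the WT arrays. REF also lay between the groups in Cacna1h (0.7136), Mrvi1 (0.8536), Mef2c (0.7221) and Fhl1 (0.8795). It lay inside the WT range in Ryr2 and Zyx. The median log2 fold changes of these lists were -0.22, -0.03 and -0.10 for STAT5b-/- over WT, beside 0.007 for all genes. For REF over the same WT arrays they were -0.23, -0.15 and -0.14, beside -0.05 for all genes. By median level per array, the first list read -0.30, -0.24 and -0.33 in the STAT5b-/- arrays and -0.23 in REF. In the WT arrays it read -0.13, 0.07 and 0.04.

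On the neural side, other neuropeptide and transmitter genes had 2 of 32 higher and 5 lower, or 21.9% beside 21.7% of all genes. Their median log2 fold change was -0.27 for STAT5b-/- and -0.27 for REF, both over WT. Nts, the precursor of neurotensin, which gut endocrine cells also make, rose 25.8-fold (limma adjusted p = 0.000216). Tac1, the precursor of substance P, fell by 1.50 ± 0.21 and Grp, gastrin-releasing peptide, by 1.44 ± 0.25 (limma adjusted p = 0.00384 and 0.00840). Tac1 had ratios of 0.293, 0.322 and 0.460 in the STAT5b-/- arrays, 0.532 in REF and 1.01, 0.850 and 1.14 in the WT arrays, so REF lay between the groups. Other synaptic and neuronal cytoskeleton genes had 0 of 45 higher and 4 lower, or 8.89%. Among these, Resp18, a secretory granule protein, fell by 1.11 ± 0.19 (adjusted p = 0.00830). The sodium channel Scn11a of gut sensory neurons fell by 0.69 ± 0.16 (adjusted p = 0.0245). The median log2 fold change of that list was -0.23 for STAT5b-/- and -0.25 for REF, and both were taken against the same WT arrays.

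Genes of enteric nervous system development had 4 of 25 higher and 1 lower, a share of 20% beside 21.7% of all genes. The endothelin receptor Ednrb, needed for the neural crest to colonise the distal gut, rose by 1.22 ± 0.12, with ratios of 2.48, 2.34 and 2.20 in the STAT5b-/- arrays, 0.968 in REF and 0.944, 1.02 and 1.04 in the WT arrays (limma adjusted p = 0.00101). Its ligand gene Edn3 rose by 0.94 ± 0.19, Erbb2, a receptor tyrosine kinase also of epithelium, by 1.27 ± 0.19 and Hoxb5 by 2.17 ± 0.32 (adjusted p = 0.0157, 0.00536 and 0.00455). The lower gene, Zeb2, named after its value was seen, fell by 0.73 ± 0.17 (limma adjusted p = 0.0231). Hoxb5 was also counted with the position genes below. Other glia and Schwann cell genes had 2 of 20 higher and 2 lower, also 20%: Pmp22 rose by 0.44 ± 0.11 and Mal2 by 0.47 ± 0.13, and Gpm6b fell by 0.44 ± 0.12 (adjusted p = 0.0290, 0.0438 and 0.0443). Mal2 was counted on this list, but these arrays do not show which cells carried it. REF lay between the STAT5b-/- and WT arrays in Pmp22 (1.10) and Gpm6b (0.797), and inside the WT range in Mal2.

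**Figure D5:**
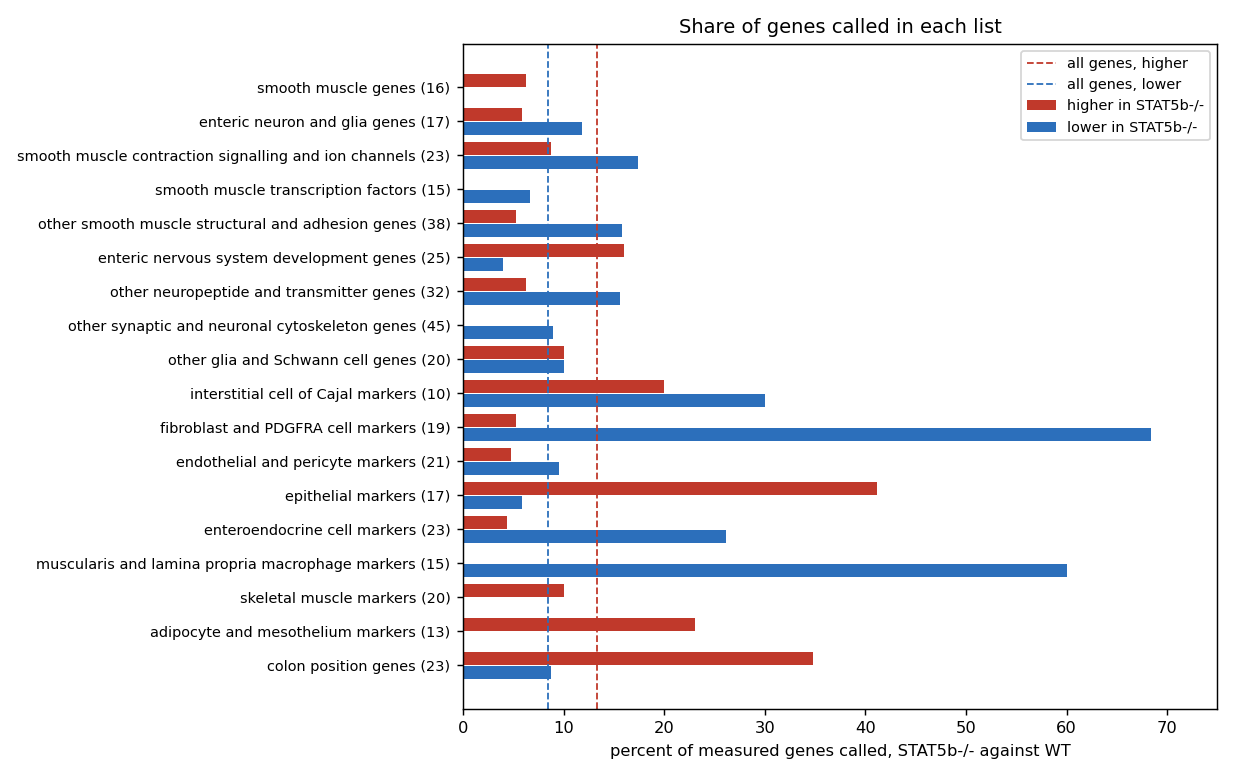
Percent of the measured genes of each list (number in brackets) called higher or lower in STAT5b-/- against WT, with dashed lines at the shares of all genes. The smooth muscle genes have 1 of 16 called higher and 0 lower. The enteric neuron and glia genes have 1 of 17 called higher and 2 lower. Fibroblast markers (13 of 19) and macrophage markers (9 of 15) were mostly lower and epithelial markers (7 of 17) often higher.

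Markers of other cells that share the colon wall differed beside these genes. Of 19 fibroblast and PDGFRA cell markers 13 were lower and 1 was higher, or 73.7% called beside 21.7% of all genes. Their median log2 level was -1.0 to -0.61 in the STAT5b-/- arrays, -0.18 in REF and -0.15 to 0.17 in the WT arrays. Enteroendocrine cells, which share several release proteins and peptides with neurons, had 6 of 23 markers lower and 1 higher, or 30.4%. Their median log2 level was -0.36 to -0.09 in the STAT5b-/- arrays, -0.04 in REF and -0.24 to 0.23 in the WT arrays, and Insl5 was at the lowest value of the table, 0.01, in 2 of the 3 STAT5b-/- arrays. Interstitial cells of Cajal, the pacemakers of the muscle, had 2 of 10 markers higher and 3 lower, or 50%. Edn3, among the higher ones, was also counted with the development genes above. Thbs4, a matrix protein counted on that list, fell by 4.93 ± 0.26, and Kit, the receptor that defines these cells and is shared with mast cells, named after its value was seen, fell by 1.18 ± 0.26 (limma adjusted p = 0.000132 and 0.0202). The bicarbonate transporter Slc4a4 of that list, which epithelium also makes, rose by 1.46 ± 0.19 (adjusted p = 0.00322). Position genes of the colon, mostly Hox genes, had 8 of 23 higher and 2 lower, or 43.5%. Hoxb6 was up by 3.94 ± 0.29 and Hoxb8 by 3.69 ± 0.12 (adjusted p = 0.000402 and 2.41e-05). The 2 lower genes, named after their values were seen, were Hoxb13 and Hoxa13. They fell by 4.89 ± 0.575 and 1.43 ± 0.30 (limma adjusted p = 0.00206 and 0.0163). The part of cell makeup and of position along the colon in the changes of Pcp4, Nefl, Snap25 and Vip was not tested.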

How the data were processed

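The deposited values are linear ratios. The WT arrays of each probe set average 1 to within 1.87e-07, which makes them ratios to the WT mean, although the step that gave them, the array type and the build are not given in the sources used here. The submitters' processing notes name RMA and no version of it. Labelled RNA came from 100 ng of total RNA, per the labels' protocols. The lowest value, 0.01, is reached by 19 of 26180 probe sets, 0 of them members. RefSeq accessions in the identifiers named 15228 probe sets (GRCm38.p6 table) and 10952 stayed unnamed.

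Ratios were taken to log2 without a pseudocount, and probe sets of a gene averaged, giving 14351 genes. STAT5b-/- and WT were compared with limma 3.58.1 in R 4.3.3 (lmFit, eBayes) over these 6 arrays, adjusted by Benjamini-Hochberg over all genes. Errors are SE for log2 fold changes and SD for ratios. The code was tested on simulated data. No depth exists for arrays, and their number limits the precision.

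The members and lists were chosen with earlier results of these data known. All members may be named, with values in every array for those called and, in a role without a call, the smallest p. Each wider list gives up to 3 called genes, and 1 such gene is not reported here. Of 350 other listed genes, 9 stand in more than 1 list.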

Additional observations from a re-analysis of the deposited data

How the results depend on the processing

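The 33 members were recomputed under 18 alternatives (17 for Synm and Elavl4, which have several probe sets and were left out where probe sets were tested singly), of which wild type taken as WT replicates 1 and 3 with REF was chosen after seeing the data. Higher calls stayed at 2 in all but quantile normalization, which left 0 higher and 1 lower (Vip); over all genes it left 158 higher and 239 lower, against 1910 and 1209. It also moved the smooth muscle median of WT replicate 2 minus the other WT arrays to -0.75. Lower calls were 1, Vip, with WT and REF together, with WT replicates 1 and 3 and REF, and with a replicate block, and 1 to 2 when leaving out an array. Over all genes, leaving out an array gave 1053 to 2192 higher and 663 to 1359 lower calls, the replicate block 1238 and 801, and testing probe sets 2911 and 2188. Same-numbered arrays did not deviate together (correlations across genes of 0.0355, -0.0984 and -0.186). Whether the numbers pair the samples is not given, and these correlations cannot decide it, because a weak pairing could give values this small. The median log2 difference of the synaptic release proteins, -0.44, was -0.31 with WT and REF together and -0.29 with WT replicates 1 and 3 and REF; that of the neuronal RNA-binding, cytoskeletal and growth proteins, 0.02, ran from -0.00486 to 0.187 when leaving out an array. Uncalled members changed sign in 0 to 7 cases per alternative, so their signs are not read. The cause of these shifts was not tested.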

Other observations

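Other tissue neighbours of the muscle coat were counted in the same fit. Endothelial and pericyte markers had 1 of 21 higher and 2 lower, or 14.3% beside 21.7% of all genes, with a median log2 fold change of 0.07. Of these, Tek and Lyve1 fell by 0.78 ± 0.13 and 0.80 ± 0.16, and Plvap, of fenestrated endothelium, rose by 0.70 ± 0.12 (limma adjusted p = 0.00627, 0.0139 and 0.00847). Lyve1 was also counted among the lower macrophage markers below, and these arrays do not show which cells carried it. REF lay between the STAT5b-/- and WT arrays in Tek (0.867), Lyve1 (0.880) and Plvap (1.305). Muscularis and lamina propria macrophage markers fell in 9 of 15 and rose in 0, or 60% called. Among them Retnla fell by 2.94 ± 0.26 and the mannose receptor Mrc1 fell by 1.92 ± 0.19 (adjusted p = 0.000771 and 0.00107).

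Skeletal muscle markers had 2 of 20 higher and 0 lower, or 10% beside 21.7% of all genes. Of their log2 fold changes 8 were positive and 12 negative, with a median of -0.03. The 2 higher genes were the slow-fibre troponins Tnnt1, with ratios of 2.42, 1.59 and 2.16 in the STAT5b-/- arrays, 1.02 in REF and 0.937, 1.13 and 0.931 in the WT arrays, and Tnni1, which rose by 1.00 ± 0.26 (limma adjusted p = 0.0105 and 0.0343). Adipocyte and mesothelium markers had 3 of 13 higher and 0 lower, or 23.1% beside 21.7% of all genes. Cidec, a lipid droplet protein, was up by 3.37 ± 0.32, Pparg by 2.05 ± 0.28 and Lpl by 0.84 ± 0.21 (adjusted p = 0.000979, 0.00372 and 0.0341). The list did not rise as a whole: 7 log2 fold changes were positive and 6 negative, with a median of 0.03. Adipoq, named after its value was seen, had -1.32 ± 0.69 and did not pass (limma adjusted p = 0.23).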
